A study of Mus musculus with 12 samples.

Results

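H/ACA box snoRNAs and small Cajal body RNAs were followed in sequenced small RNA of the mouse hippocampal CA1 region. They were taken by name, as the Snora and Scarna rows of a count table of small RNAs other than miRNAs, here called misc RNAs. This gave 35 RNAs, 26 H/ACA snoRNAs and 9 Cajal body RNAs, of 4645 rows in the table, and no pair among them had identical counts. The study compared Kat2a cKO mice, which carried Kat2a fl/fl alleles with a CamKIIα-cre+ transgene (n = 6), with Control mice that carried Kat2a fl/fl alleles without Cre (n = 6). Both groups were C57BL/6J mice aged 3 to 5 months, and CA1 was dissected from each. Kat2a encodes a histone acetyltransferase, and CamKIIα-driven Cre acts in forebrain excitatory neurons, so the other cells of the tissue kept the gene. Each library was counted in the misc RNA table, a miRNA table and a table of all RNAs. The question was whether these RNAs differ in level between Kat2a cKO and Control CA1.

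H/ACA snoRNAs fold into a pair of hairpins, joined by a hinge with the H box and followed by a tail with the ACA box. Together with dyskerin and its partner proteins they guide the conversion of chosen uridines to pseudouridine, mostly in ribosomal RNA, and a few act in the cleavage of the ribosomal precursor instead. Small Cajal body RNAs do the same kind of work on the spliceosomal small nuclear RNAs, and hold H/ACA hairpins, C/D box elements that guide ribose methylation, or both. Most are cut out of introns of host genes, many of which encode ribosomal proteins. All 35 matched a RefSeq gene of assembly GRCm38.p6 by symbol, and 31 lay inside a gene on the same strand in GENCODE M21. The ACA box, the letters ACA 3 bases from the 3′ end on the RNA strand, was found in 23 of the 26 H/ACA snoRNAs (88.5%). It was found in 34 of all 40 Snora sequences of GENCODE M21 (85%), in 2 of 9 Scarna sequences (22.2%) and in 0 of 98 Snord sequences. These counts rest on the annotated 3′ ends. Snora28, Snora17 and Snora74a had AAC, GAC and AAC at that position. Scarna3a and Scarna3b, printed below, hold ACA 2 bases from the end and were not counted.

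The sequences below are part of those discussed, without Scarna17 and Scarna6, and are written in DNA letters from GENCODE M21 (GRCm38). The first 3 are Snora16a, the H/ACA snoRNA with the most reads in the misc RNA table, and Snora41 and Snora7a, those with the most reads in the table of all RNAs. Capitals mark the ACA box and the match to the H box (ANANNA) nearest the middle. Snora16a lies at chr4:132309464-132309600 on the + strand in the non-coding host Snhg12. Snora41 lies at chr1:63179004-63179135 on the + strand in Eef1b2, and Snora7a at chr6:115807975-115808114 on the - strand in Rpl32.
Snora16a: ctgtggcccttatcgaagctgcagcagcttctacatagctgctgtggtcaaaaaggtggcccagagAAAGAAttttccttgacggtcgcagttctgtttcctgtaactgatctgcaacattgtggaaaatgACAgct
Snora41: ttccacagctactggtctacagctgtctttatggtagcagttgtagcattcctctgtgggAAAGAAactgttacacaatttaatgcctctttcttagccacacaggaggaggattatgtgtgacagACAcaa
Snora7a: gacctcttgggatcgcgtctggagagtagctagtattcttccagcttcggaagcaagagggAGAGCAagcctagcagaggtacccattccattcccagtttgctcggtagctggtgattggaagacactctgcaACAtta
The H box letters are short and common. Leaving out the last 6 bases, they were found on the RNA strand in 40 of 40 Snora sequences and in 84 of 98 Snord sequences (85.7%). Between 40% and 60% of the length they were found in 35 Snora sequences (87.5%) and in 30 Snord sequences (30.6%).

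Scarna3a and Scarna3b, near copies known in human as guides for the small nuclear RNA U6, each hold a miRNA hairpin toward their 3′ end. Scarna3a lies at chr1:159340283-159340422 on the + strand in Cop1, and Scarna3b at chr12:80391613-80391751 on the - strand in Dcaf5. They shared 120 of 140 aligned bases (85.7%). Capitals mark the 2 miRNA arms in each.
Scarna3a: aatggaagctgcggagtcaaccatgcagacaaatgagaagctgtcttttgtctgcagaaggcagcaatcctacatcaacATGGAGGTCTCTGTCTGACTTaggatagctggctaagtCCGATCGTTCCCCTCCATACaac
Scarna3b: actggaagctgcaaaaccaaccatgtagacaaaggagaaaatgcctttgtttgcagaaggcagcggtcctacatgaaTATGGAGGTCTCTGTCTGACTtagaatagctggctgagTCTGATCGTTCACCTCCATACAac
Of 1679 mature mouse miRNAs in RefSeq (GRCm38.p6), searched in all 35 RNAs on the RNA strand, matches were found in these 2 and in Scarna13. The arms are printed below with the seed, bases 2 to 8, in capitals.
miR-1843b-5p: aUGGAGGUcucugucugacuu
miR-1843b-3p: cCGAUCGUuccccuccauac
miR-1843a-5p: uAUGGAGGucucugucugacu
miR-1843a-3p: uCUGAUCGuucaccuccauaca
miR-3069-5p: uUGGCAGUcaagauauuguuuagc
miR-3069-3p: uUGGACACuaaguacugccaca
No 2 of the 6 arms had the same seed. The whole of miR-1843b-5p also occurred in Scarna3b, at bases 79 to 99, shifted by 1 base from miR-1843a-5p at bases 78 to 98. A read of miR-1843b-5p therefore cannot be assigned to 1 RNA from its sequence alone. The whole of miR-1843a-5p, with its first u, was found in Scarna3b only.

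Snora73a and Snora73b, known as U17 or E1 and needed for cleavage of the ribosomal precursor, lie in the Snhg3 host gene. They are at chr4:132352775-132352979 and chr4:132352322-132352526 on the - strand, and both are 205 bases long. Their sequences differed at 7 bases (96.6% identical), which are in capitals.
Snora73a: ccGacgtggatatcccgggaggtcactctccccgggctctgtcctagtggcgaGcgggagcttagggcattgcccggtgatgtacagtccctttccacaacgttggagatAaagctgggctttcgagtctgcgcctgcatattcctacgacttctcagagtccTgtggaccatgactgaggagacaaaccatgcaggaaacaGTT
Snora73b: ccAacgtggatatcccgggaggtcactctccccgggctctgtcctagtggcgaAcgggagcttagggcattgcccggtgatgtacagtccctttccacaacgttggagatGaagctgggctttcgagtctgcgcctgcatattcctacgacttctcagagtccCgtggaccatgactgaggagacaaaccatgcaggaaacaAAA

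Total counts per library in the misc RNA table were 1850184 to 8586979 in Kat2a cKO and 1779081 to 5086458 in Control. Kat2a itself had 13 reads in Kat2a cKO (0 to 5 per library) and 23 in Control (0 to 8 per library) in the table of all RNAs, too few for a check of the deletion in these short fragments. The summed level of 4 CA1 marker genes there was 5.21 to 10.6 CPM in Kat2a cKO and 5.8 to 21.1 CPM in Control. Dentate markers summed to 3.56 to 13.4 CPM in Kat2a cKO and 3.31 to 11 CPM in Control. Choroid plexus markers summed to 13.6 to 513 CPM in Kat2a cKO and 17.8 to 145 CPM in Control, mostly from Aqp1, with 973 and 855 reads, while Ttr, the defining marker, had 16 and 18. CA3 markers summed to 6.49 to 300 CPM in Kat2a cKO and 2.97 to 55.4 CPM in Control, mostly from Grik4, with 760 and 143 reads, while Bok had 42 and 30 and Iyd 17 and 9. Those 2 sums therefore follow single genes rather than their lists. Library Control 2, with the lowest total, had the highest level of its group for 12 of 17 tested RNAs, and Control 1 the lowest for 8. Their weight in the results is given below.

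The 35 RNAs were a minor part of the libraries, and a single one made up most of their signal. They took 0.102 to 0.122% of misc RNA reads in Kat2a cKO (median 0.118%) and 0.0995 to 0.133% in Control (median 0.114%). C/D box snoRNAs, the larger class of guide RNAs, took 27.3 to 32.4% in Kat2a cKO and 26.6 to 32.6% in Control. Of 56453 reads of the 35 RNAs, Scarna17 held 52.6%, Scarna17 and Scarna6 together 75.9%, and these with Snora16a 83.5%. The gel band cut for the libraries was 150 bp, so a read is a short fragment, and its level need not follow that of the whole RNA.

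In CPM, the read counts of the misc RNA table scaled to library size with edgeR's TMM factors, the Cajal body RNAs summed to 1018 ± 112 in Kat2a cKO and 891 ± 121 in Control (SD, n = 6 each). The H/ACA snoRNAs summed to 208 ± 42.7 CPM in Kat2a cKO and 195 ± 42.6 CPM in Control. The difference between the means was slightly larger than the SD between libraries for the Cajal body RNAs and smaller for the H/ACA snoRNAs. These SDs describe single libraries, not the uncertainty of the means, and the sums were not tested. In bulk tissue, fewer cells of a type and less RNA per cell cannot be told apart.

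No H/ACA snoRNA or Cajal body RNA passed the test between groups. By edgeR's quasi-likelihood test, 1073 rows were tested. Of the 35 RNAs, 17 (11 H/ACA snoRNAs and 6 Cajal body RNAs) passed the filter on read counts and were among them. At an adjusted p of 0.05 the call covered 0 of 17, beside 0% of all rows, and their adjusted p was 0.831 to 0.994. At an unadjusted p of 0.05 it covered 0 of 17, beside 7.18% of all rows. DESeq2 called 0 rows of the table. Kat2a cKO and Control levels overlapped for all 17, and 0.0932% of all tested rows had groups that did not overlap.

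Of the 17, 13 had a higher fitted level in Kat2a cKO and 4 a lower one, beside 53% of all rows higher. Their median log2 fold change was 0.12, against 0.03 over all tested rows. It was 0.09 for the H/ACA snoRNAs, 8 of 11 higher, and 0.17 for the Cajal body RNAs, 5 of 6 higher. The C/D box snoRNAs had a median of 0.20, 65 of 70 higher, while their share of raw reads had a median of 31.7% in Kat2a cKO and 31% in Control. With other library scales (RLE factors or DESeq2) the median of the 17 was 0.09, with 11 of 17 higher, beside 50.6% and 50.7% of all rows higher. The excess of higher values moved with single libraries, as did the share over all rows. Without Control 1 the median was -0.06, with 6 of 17 higher, beside 46.9% of all rows and a median of -0.03 over them. Without Kat2a cKO 2 it was 0.03, with 9 of 16 higher, beside 55.3% of all rows. Without Control 2 it was 0.23, with 14 of 17 higher, beside 66.8% of all rows and a median of 0.10 over them. Without Kat2a cKO 5 it was 0.20, with 14 of 17 higher, beside 58.3% of all rows. Without Control 4 it was also 0.20, with 13 of 16 higher, beside 55.6% of all rows, and Scarna3b was not tested.

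**Figure D1:**
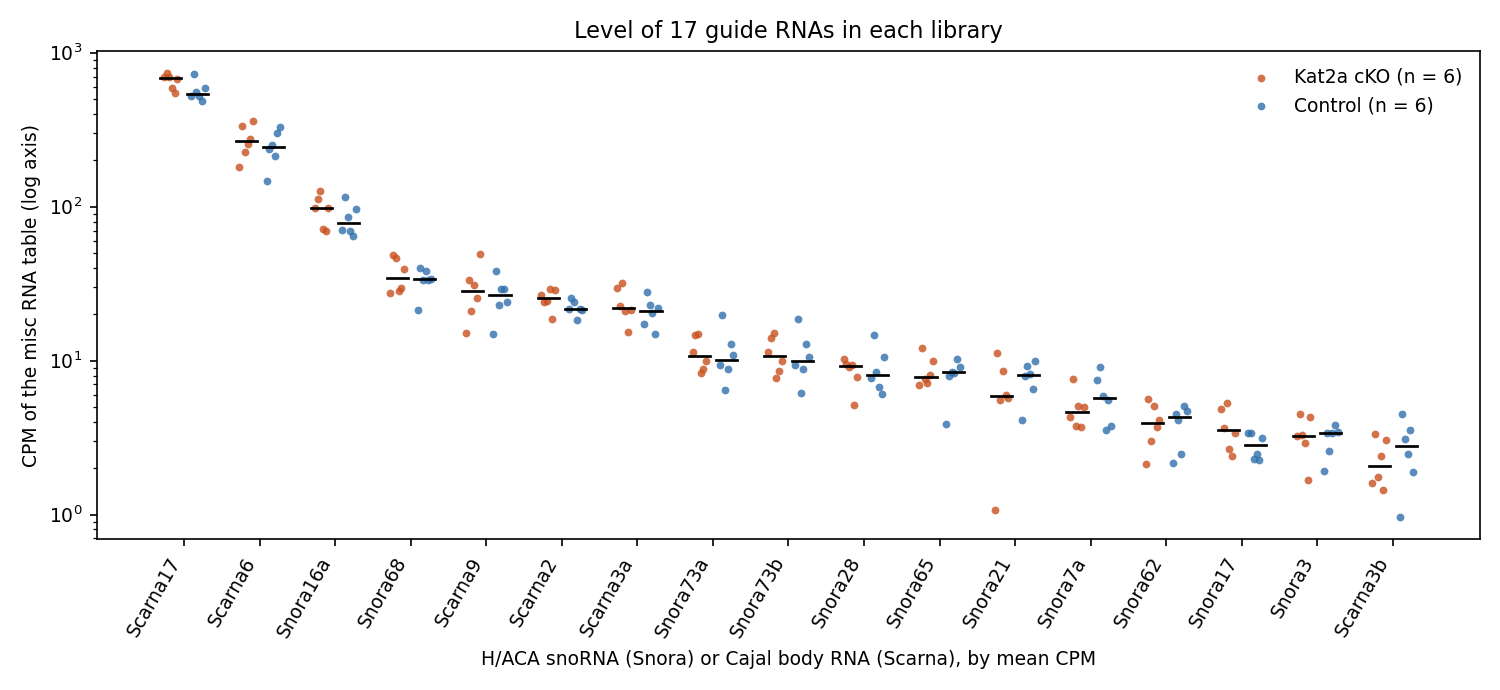
Level of each of the 17 tested RNAs in each library, in CPM of the misc RNA table on a log axis, with Kat2a cKO left of Control and the group median as a line. Scarna17 lies highest, between 484 and 739 CPM, and the points of the groups overlap for every RNA shown.

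Scarna17, known in human as a C/D box guide for the small nuclear RNAs U4 and U12, had 551, 686 and 739 CPM in Kat2a cKO (lowest, median and highest) and 484, 542 and 723 CPM in Control. Of the Kat2a cKO libraries, 5 of 6 exceeded the Control mean, but the highest Control library also exceeded 5 of them. Its log2 fold change was 0.21 ± 0.15 (SE), with a 95% interval of -0.11 to 0.54. No host gene on the same strand was annotated for it.

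Scarna6, known in human as U88 and annotated in Atg16l1, an autophagy gene, had 181, 266 and 361 CPM in Kat2a cKO and 147, 245 and 328 CPM in Control. The lowest library of each group was its replicate 1 and the highest its replicate 6. The log2 fold change was 0.15 ± 0.22, and 0.01 without Control 1.

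Scarna9 and Scarna2 are known in human as C/D box guides for the small nuclear RNA U2. Scarna9, in Cep295, had 15, 28.3 and 49.5 CPM in Kat2a cKO and 14.9, 26.5 and 38.4 CPM in Control. Its levels spread over a wide range in both groups, with replicate 1 lowest in each, and the log2 fold change was 0.15 ± 0.30. Scarna2 had 18.5, 25.6 and 29.3 CPM in Kat2a cKO and 18.3, 21.5 and 25.4 CPM in Control. It had the least spread of the tested RNAs in Control, with a coefficient of variation of 11.3%. Of its Kat2a cKO libraries, 3 were above every Control library, and the log2 fold change was 0.20 ± 0.19.

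Scarna3a had 15.4, 22 and 31.7 CPM in Kat2a cKO and 14.9, 21.2 and 27.7 CPM in Control. The groups covered nearly the same range, and the log2 fold change was 0.18 ± 0.23. Scarna3b, its near copy, was scarcer, at 1.44, 2.08 and 3.36 CPM in Kat2a cKO and 0.962, 2.78 and 4.52 CPM in Control. Both the lowest and the highest value of Scarna3b were Control libraries, and the log2 fold change was -0.21 ± 0.35.

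Among the H/ACA snoRNAs, Snora16a had 69.1, 98.1 and 127 CPM in Kat2a cKO and 64.9, 77.9 and 116 CPM in Control. Kat2a cKO 3 was the only library above the highest Control library, and the log2 fold change was 0.20 ± 0.22. Snora68 had 27.3, 34.4 and 48.7 CPM in Kat2a cKO and 21.4, 33.7 and 40.1 CPM in Control. The medians were nearly equal, and Control 1 stood below all other libraries. The log2 fold change was 0.13 ± 0.23, and -0.02 without Control 1.

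Snora73a had 8.25, 10.6 and 14.9 CPM in Kat2a cKO and 6.41, 10.2 and 19.8 CPM in Control. All Kat2a cKO libraries lay within the Control range, and the log2 fold change was 0.01 ± 0.27. Snora73b had almost the same counts, with 518 reads against 527 and a difference of at most 2 reads in any library. How reads that match both were counted is not given in the sources used here, so the 2 rows are uncertain as separate measurements.

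Snora28, Snora65, Snora21, Snora7a, Snora62 and Snora3 lie in genes of the translation machinery, Eif5, Rpl12, Rpl23, Rpl32, Rpsa and Rpl27a. Snora28 had 5.16, 9.19 and 10.2 CPM in Kat2a cKO and 6.06, 8.08 and 14.7 CPM in Control, with a log2 fold change of -0.08 ± 0.25. Snora65 had 6.97, 7.8 and 12 CPM in Kat2a cKO and 3.85, 8.41 and 10.3 CPM in Control, with a log2 fold change of 0.12 ± 0.24. For both, the order of the medians was opposite to the sign of the fitted change, and the ranges overlapped over most of their length. Snora21 had 1.07, 5.85 and 11.2 CPM in Kat2a cKO and 4.09, 8.04 and 10 CPM in Control. Kat2a cKO 1 was the lowest and Kat2a cKO 2 the highest of all 12 libraries. No tested RNA varied more among Kat2a cKO libraries (coefficient of variation 53.4%). The value of Kat2a cKO 1, the library with the smallest total of its group, rested on 2 reads, against a group median of 32. The log2 fold change of Snora21 was -0.24 ± 0.35.

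Snora7a had 3.72, 4.64 and 7.56 CPM in Kat2a cKO and 3.55, 5.73 and 9.04 CPM in Control. Only Kat2a cKO 2 was above the Control mean, and the log2 fold change was -0.23 ± 0.27. Snora62 had 2.14, 3.91 and 5.6 CPM in Kat2a cKO and 2.16, 4.31 and 5.05 CPM in Control, with a log2 fold change of 0.09 ± 0.28. Snora3 had 1.68, 3.24 and 4.48 CPM in Kat2a cKO and 1.92, 3.38 and 3.79 CPM in Control, with a log2 fold change of 0.09 ± 0.28. The Kat2a cKO values of these last 2 reached both below and above the Control range. Snora17, for which no host gene was annotated, had 2.4, 3.51 and 5.29 CPM in Kat2a cKO and 2.27, 2.81 and 3.39 CPM in Control. Its log2 fold change was the largest of the 17, 0.37 ± 0.26 with a 95% interval of -0.19 to 0.92. It was 0.74 in replicate numbers 1 to 3 alone and 0.12 in numbers 4 to 6 alone. In 3 Kat2a cKO libraries the level of Snora17 was above every Control library. These levels rested on 9 to 21 reads per Kat2a cKO library and 6 to 14 per Control library.

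**Figure D2:**
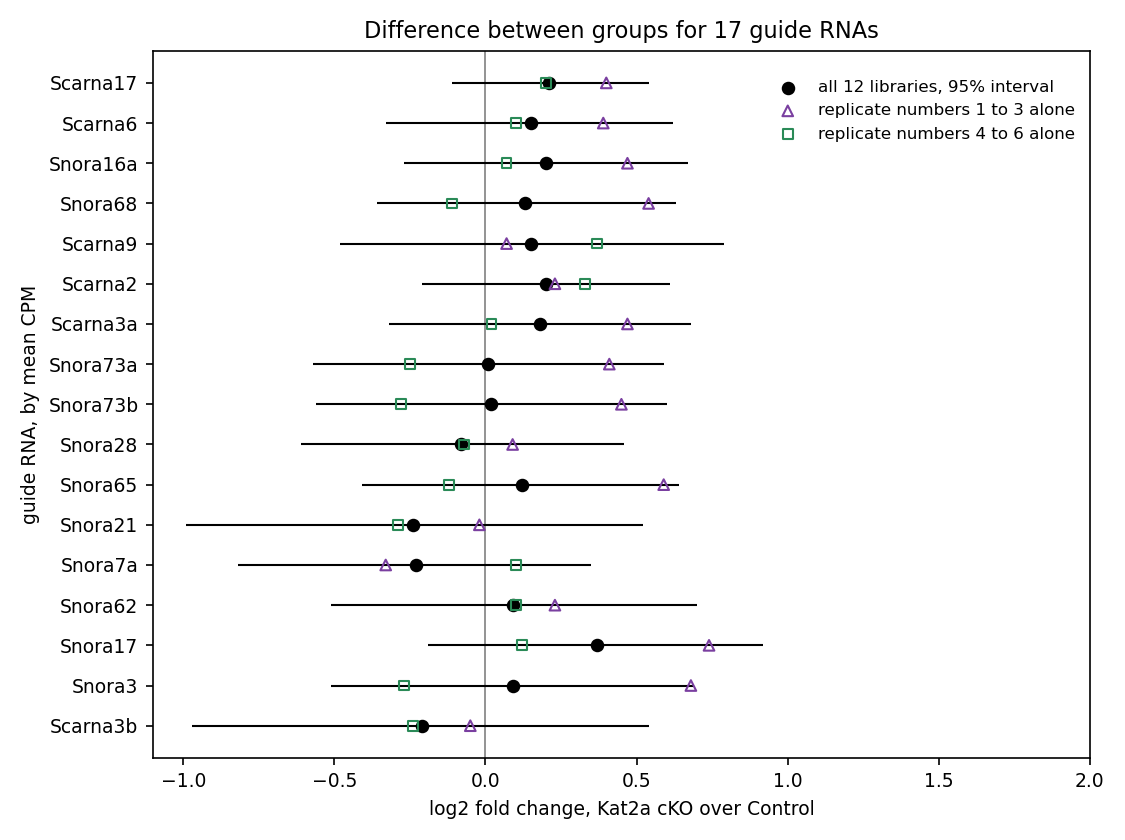
log2 fold change of Kat2a cKO over Control for the 17 tested RNAs, with the 95% interval of edgeR's fit, and the values within replicate numbers 1 to 3 and 4 to 6 alone. All 17 intervals include 0, and for 14 of 17 RNAs the value within numbers 1 to 3 is above 0.

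The direction also differed between sets of libraries. Replicate numbers 1 to 3 alone gave a median log2 fold change of 0.40 with 14 of 17 RNAs higher in Kat2a cKO, beside a median of 0.08 and 62.9% higher over all rows. Numbers 4 to 6 alone gave 0.02 with 9 of 17 higher, beside 0.05 and 53.1% over all rows. The labels do not say that the numbers mark a batch. Snora73a, for example, had 0.41 in the first set and -0.25 in the second, and Snora3 0.68 and -0.27. No RNA passed the test in either set, with smallest adjusted p of 0.669 and 0.617 (edgeR). The difference between the sets was not tested.

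Per kilobase of the annotated row, the order of levels was steep. Scarna17 had 10607 ± 1169 CPM per kb in Kat2a cKO and 9148 ± 1353 in Control (SD, n = 6 each). Scarna6 had 1099 ± 267 and 994 ± 261, Scarna9 696 ± 285 and 630 ± 187, and Snora16a 707 ± 166 and 615 ± 146. Scarna9 and Snora16a changed places between libraries, as did Scarna2 and Snora68 below them. Scarna17, Scarna6, Snora16a, Snora68 and Scarna3a each stood above the next RNA in the order in all 12 libraries. From Snora28, with 69.8 ± 14.8 in Kat2a cKO and 74.2 ± 26.1 in Control, each RNA crossed the next one in some library, down to Scarna3b at 18.3 ± 6.41 and 22.1 ± 10.1. The row of Scarna17 spans 62 bases, against 79 in GENCODE M21, and that of Scarna2 spans 61 of 414, so values per length rest on where each annotation sets the ends.

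The other 18 RNAs, with 1 to 123 reads over all 12 libraries, did not pass the filter of the fit. Total reads alone did not decide this, since Scarna3b passed with 118. None of the 18 had groups that did not overlap, and 0.166% of all rows outside the fit did. For the 9 with 30 reads or more, exact permutation tests (two-sided, n = 6 each) gave p from 0.0303 to 0.985. The smallest was that of Scarna8, a Cajal body RNA in Haus6 known in human as a guide for U2. It had 1.08, 2.27 and 3.75 CPM in Kat2a cKO and 0.77, 1.31 and 1.69 CPM in Control, with 55 and 28 reads. In a fit of all 2883 rows with a read it did not pass (adjusted p = 0.605, edgeR). Scarna10, a guide for U5 in human, had the most reads of the 18. It had 80 in Kat2a cKO and 43 in Control, with 1.96, 2.69 and 5.36 CPM in Kat2a cKO and 0.77, 1.95 and 4.52 CPM in Control. Snora24 had 64 and 49 reads, close to the 65 and 59 reads of its host Snhg8, and whether they are the same reads was not tested. Snora15 was the scarcest, with 0 reads in Kat2a cKO and 1 in Control.

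Snora41 was nearly absent from the misc RNA table and abundant in the table of all RNAs. In the misc RNA table it had 2 reads in Kat2a cKO, 0 to 1 per library, and 15 in Control, 1 to 5 per library (no-filter fit, unadjusted p = 0.00244, adjusted p = 0.532, edgeR). In the table of all RNAs it had 19850 reads, at 561, 703 and 777 CPM in Kat2a cKO and 535, 613 and 775 CPM in Control. There the groups covered nearly the same range, and the log2 fold change was 0.14 ± 0.15 (SE), opposite in sign to the misc RNA table.

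The 35 RNAs all had rows in the table of all RNAs, and the reads there fell on other members. They held 134486 reads, of which Scarna3a, Snora41, Scarna3b and Snora7a took 97.4%. Scarna17 and Scarna6, which led the misc RNA table, had 42 reads together. In all, 10 RNAs had more reads in the table of all RNAs than in the misc RNA table and 25 had fewer. Snora41 had 1168 reads there for each read in the misc RNA table, Scarna3b 111, Scarna3a 89.7 and Snora7a 17.7, while Scarna17 had 0.000674. How reads were divided between the tables is not given in the sources used here, so levels can be compared between groups within a table, but not between tables.

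**Figure D3:**
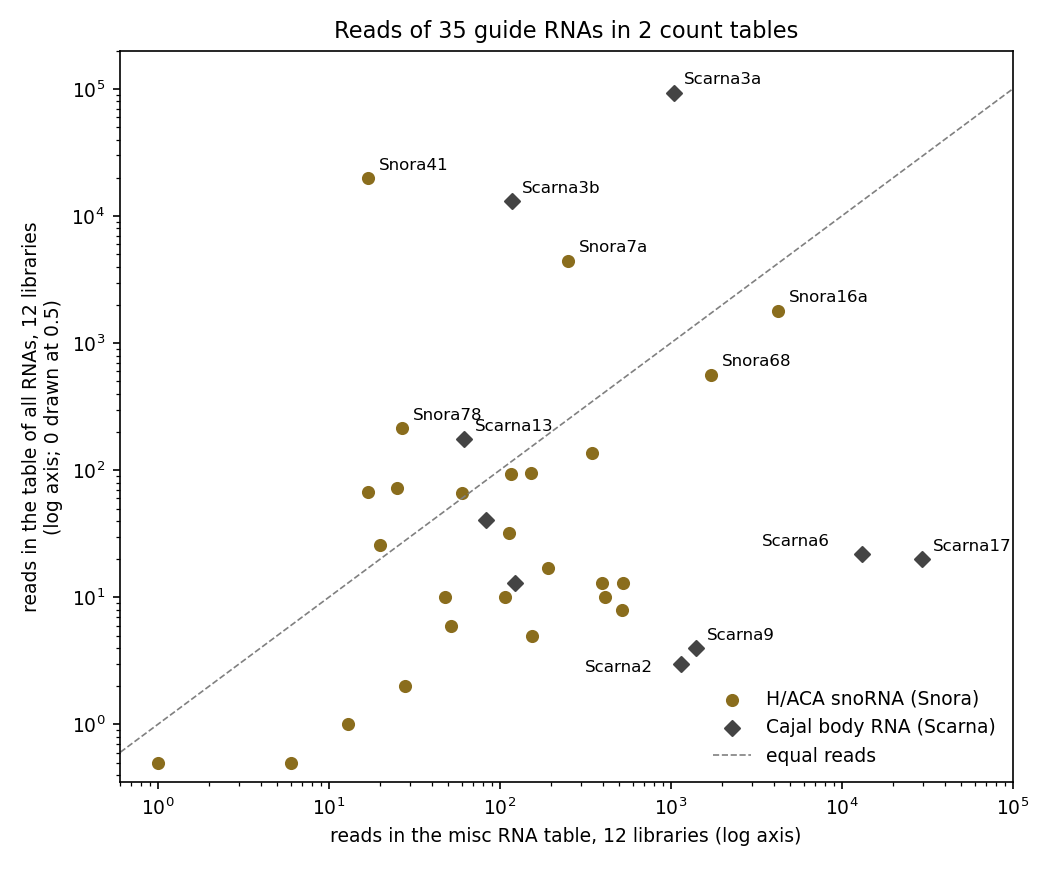
Reads of each of the 35 RNAs over 12 libraries in the misc RNA table and in the table of all RNAs, both on log axes, with a dashed line at equal reads. Scarna3a, Snora41, Scarna3b and Snora7a lie far above the line, and Scarna17 and Scarna6 far below it.

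In the table of all RNAs, too, no member passed the test. Its columns give the group but no replicate number, so its libraries carry letters. By the same edgeR test, 9 of the 35 RNAs entered the fit of 1846 rows. The adjusted p was under 0.05 for 0 of 9, beside 0% of all rows, and DESeq2 called 10 rows and none of the 9. The unadjusted p was under 0.05 for 0 of 9, beside 4.39% of all rows. Of the 9, 6 were higher in Kat2a cKO and 3 lower, beside 47.7% of all rows higher, with a median log2 fold change of 0.03 against -0.02 over all rows. Both tables count the same libraries, so they are not independent.

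Scarna3a had 2997, 3339 and 3399 CPM in Kat2a cKO and 2591, 2957 and 3215 CPM in Control in that table. Its log2 fold change was 0.16 ± 0.13, near the 0.18 of the misc RNA table. Scarna3b had 302, 376 and 430 CPM in Kat2a cKO and 289, 348 and 1233 CPM in Control. The Control mean rested on library f, since the next highest Control library had 695 CPM and the mean of the other 5 was 401 CPM. The log2 fold change of Scarna3b was -0.55 ± 0.35, the smallest p of the 9 members (unadjusted p = 0.141, adjusted p = 0.999, edgeR).

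Snora7a had 117, 134 and 186 CPM in Kat2a cKO and 93.6, 158 and 171 CPM in Control. The groups overlapped over most of their range, and the log2 fold change was 0.03 ± 0.20, against -0.23 in the misc RNA table. Snora16a and Snora68 had log2 fold changes of -0.04 ± 0.22 and 0.01 ± 0.27, against 0.20 and 0.13 in the misc RNA table. Snora21 had 0.20 ± 0.32, against -0.24 there. Of the remaining 2, Snora78 had 0.25 ± 0.27 and Scarna13 -0.11 ± 0.31.

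Of the 6 miRNA arms annotated inside 3 Cajal body RNAs, 5 were tested and none was called between the groups; miR-1843b-3p was not analysed here. The arms miR-1843b-5p and miR-1843b-3p lie at bases 80 to 100 and 118 to 137 of the 140 bases of Scarna3a. The arms of miR-1843a lie at bases 78 to 98 and 116 to 137 of the 139 bases of Scarna3b, and those of miR-3069 at bases 210 to 233 and 251 to 272 of the 275 bases of Scarna13, known in human as U93. The annotated rows of all 3 include both arms.

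**Figure D4:**
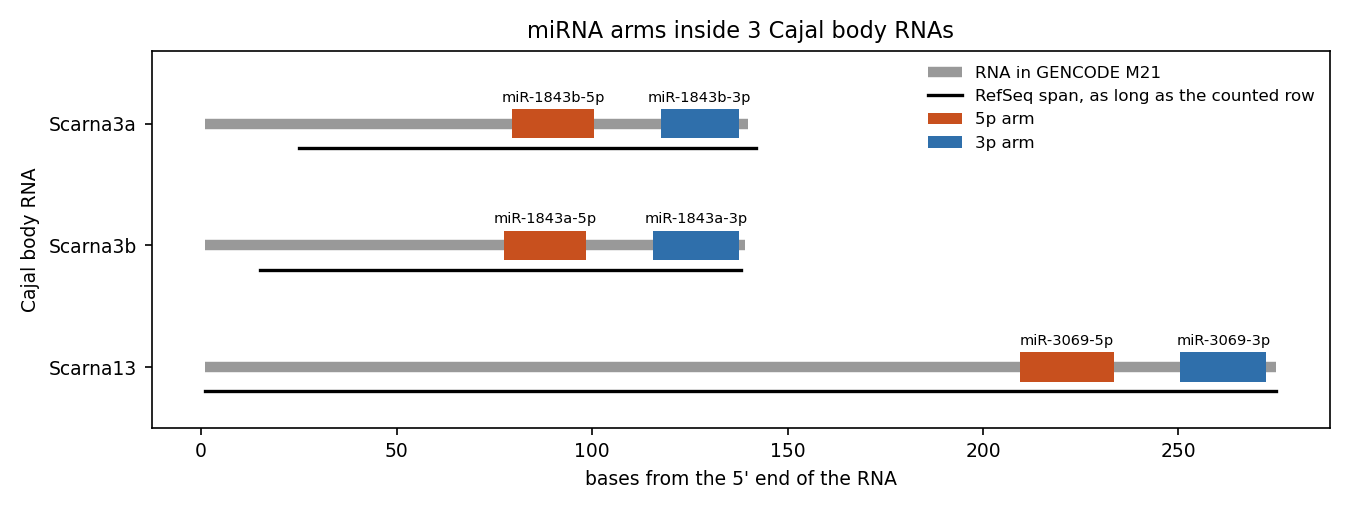
Position of the miRNA arms along Scarna3a, Scarna3b and Scarna13, in bases from the 5′ end, with the RefSeq span of each counted row as a thin line. In all 3 RNAs the arms lie toward the 3′ end and inside the span.

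miR-1843b-5p had 675, 855 and 1148 CPM of the miRNA table in Kat2a cKO and 588, 809 and 1018 CPM in Control, with 65363 reads in all. The row named miR-1843-5p, which RefSeq lists as an older name of the miR-1843a hairpin, had 634, 805 and 1018 CPM in Kat2a cKO and 547, 742 and 866 CPM in Control. Both were above the Control mean in 4 of 6 Kat2a cKO libraries, and the groups overlapped. Their log2 fold changes were 0.15 ± 0.17 and 0.17 ± 0.16 (SE). Scarna3a, where miR-1843b-5p is annotated, had 0.18 ± 0.23 in the misc RNA table and 0.16 ± 0.13 in the table of all RNAs. Scarna3b, where the other arm is annotated, had the opposite sign, at -0.21 ± 0.35 and -0.55 ± 0.35.

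For each read of Scarna3a in the misc RNA table there were 28.9 to 95.5 reads of miR-1843b-5p in Kat2a cKO libraries and 32.8 to 94.3 in Control libraries. The ratio varied over a similar range in both groups. miR-1843-3p had a log2 fold change of 0.31 ± 0.23, miR-3069-5p of 0.40 ± 0.22 and miR-3069-3p of -0.03 ± 0.25. All 5 had an adjusted p of 0.997 (edgeR), and 0.202% of the 494 tested miRNAs were called. Whether the 93574 reads of Scarna3a in the table of all RNAs include those of the miRNA was not tested.

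The protein partners and host genes were barely covered, since a small RNA library holds only fragments of messenger RNAs. Of 11 genes for H/ACA proteins and their assembly factors, 1 had a tested row in the table of all RNAs, Parn, an exonuclease that trims the ends of such RNAs (log2 fold change 0.28 ± 0.46, SE). Dkc1, which encodes dyskerin, the pseudouridine synthase itself, had 14 reads in Kat2a cKO and 5 in Control. Of 11 genes listed for Cajal body proteins, 2 had a tested row, Ice1 (0.21 ± 0.52) and Ell (0.06 ± 0.34). Usp1 was on that list without being an established Cajal body component, and had no tested row. Coil, which encodes the scaffold protein coilin, had 33 and 20 reads. None of the 3 tested rows passed.

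Of 42 host genes of snoRNAs, 39 had a row and 4 had a tested one, 2 higher in Kat2a cKO and 2 lower, with none called. They were Snhg8 (0.44 ± 0.48), Ncl, which encodes nucleolin (0.02 ± 0.29), Snhg12 (-0.10 ± 0.34) and Cep295, a centriole gene (-2.89 ± 1.12, unadjusted p = 0.0231, adjusted p = 0.999, edgeR). Cep295 hosts Scarna9 and had 107 reads in Kat2a cKO, 1 to 49 per library, and 530 in Control, 1 to 235 per library. Scarna9 itself had a log2 fold change of 0.15 ± 0.30 in the misc RNA table. Rps2, the host of Snora64, had 892 reads in Kat2a cKO, of which 522 and 323 were from 2 libraries, and 68 in Control, so it was not tested. Snora64 had 30 and 22 reads in the misc RNA table. Terc, the telomerase RNA, which ends in an H/ACA domain, had 10 and 7 reads in the misc RNA table. In the table of all RNAs it had 135 and 14 reads, 130 of them in 1 Kat2a cKO library.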

How the data were processed

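Small RNA was sequenced from CA1 of 6 Kat2a cKO and 6 Control mice. TRI Reagent was used for extraction, DNase was applied, and an Illumina small RNA kit served for the libraries, per the labels' protocols. Base calling used CASAVA, per the submitters' processing notes. The aligner, genome build, annotation, use of strand and treatment of reads with several matches are not given in the sources used here, so coordinates are those of the reference only. The deposited tables hold raw read counts made by the authors, whole numbers without normalization, per the file headers and values. PCR reads carry no molecular identifiers here.

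From these counts, each whole table was fitted by edgeR 4.0.16 in R 4.3.3 (filterByExpr, TMM, quasi-likelihood test on group, two-sided, Benjamini-Hochberg adjustment over all tested rows, threshold 0.05). SEs are the log2 fold change over the square root of the F statistic. For 20 low rows, Snora3 and Snora17 among them, edgeR reports a p above that of F, which the SE does not reflect. CPM uses TMM library sizes. RNAs outside the fit with at least 30 reads had exact permutation tests over 924 assignments (scipy 1.17.1). Libraries of a group are labelled as separate samples, and p-values measure the spread between them; no 2 libraries agreed within sampling noise. All tested members are named, and of the others those with the most reads or with zeros; Scarna8, Snora24, Snora41, Snora64, Cep295, Rps2 and Terc were chosen after their values were seen. One annotation is not reported here. The members and gene lists were chosen with earlier results of these data known.

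The fit was tested on simulated counts of the misc RNA table (1034 to 1048 rows tested, 200 changed, 3 draws). It recovered 14.5% of rows changed 1.5-fold, 55.2% of those changed 2-fold and 96.8% of those changed 4-fold. Rows were drawn independently, and with 200 changed rows the adjusted threshold is easier to pass. The real counts gave 0 calls, so recovery in them may be lower. Alternatives were RLE factors, DESeq2 1.42.0, other filters, identical rows kept once, the summed miRNA and misc RNA reads as library size, a replicate block, sets of replicate numbers, voom weights (limma 3.58.1) and each library left out.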

Additional observations from a re-analysis of the deposited data

Results flagged for a closer look

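Snora68 in Control was flagged because 1 library stood far from the other 5. Control 1 had 21.4 CPM and the next lowest Control library 33.3 CPM, a gap of 0.64 of the range of the group. The log2 fold change of Snora68, 0.13 with all libraries, was -0.02 without Control 1.

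Snora7a in Kat2a cKO was flagged in the same way. Kat2a cKO 2 had 7.56 CPM and the next highest Kat2a cKO library 5.06 CPM, a gap of 0.65 of the range. Its log2 fold change was -0.23 with all libraries and -0.41 without Kat2a cKO 2. Chance flags about 1 in 20 groups, or 3.1 of the 62 groups checked, and 2 were flagged.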

How the results depend on the processing

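No alternative gave a call for any of the 17 RNAs or any row of the misc RNA table. In the table of all RNAs, the count of calls among members and the listed protein partners and hosts stayed 0. Of 186 values of the members under 11 alternatives that keep all libraries or a set of them, 18 changed sign. For Snora73a and Snora73b the log2 fold change was -0.02 and -0.01 with RLE factors, with 10 counts in 6 libraries, scaled to the miRNA and misc RNA total and with the set of replicate numbers (1 to 3 or 4 to 6) as a covariate, and -0.01 and -0.0031 with DESeq2. In replicate numbers 4 to 6 alone they had -0.25 and -0.28, Snora68 -0.11, Snora65 -0.12, Snora7a 0.10 and Snora3 -0.27. Snora28 had 0.09 in numbers 1 to 3 alone and 0.0011 with voom quality weights. The cause was not tested.

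When each library was left out in turn, 8 RNAs changed sign at least once. The log2 fold change ranged from -0.02 to 0.26 for Snora68, -0.01 to 0.32 for Scarna9, -0.10 to 0.25 for Snora73a, -0.09 to 0.25 for Snora73b, -0.17 to 0.13 for Snora28, -0.07 to 0.21 for Snora65, -0.06 to 0.20 for Snora62 and -0.07 to 0.30 for Snora3. Another 8 kept their sign in every alternative that gave a value. Over all rows, the median of the row-by-row shifts in log2 fold change passed 0.1 only in numbers 1 to 3 alone, at 0.11.

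The replicate block gave 0 calls, a median of 0.10 for the 17 RNAs and a smallest adjusted p of 0.822. Deviations from the group means correlated at -0.162 to 0.423 between libraries with the same number, and only number 4 correlated best with its own. The labels state no pairing, and these correlations cannot decide whether there was one. In simulated counts of the misc RNA table, 14.5% of rows changed 1.5-fold and 55.2% of those changed 2-fold were recovered. Changes of either size could therefore be missed.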
